A study of Mus musculus with 6 samples.

Results

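The cornified envelope genes are the genes whose products build, cross-link or anchor the protein shell of terminally differentiated keratinocytes. They were followed here in mouse tongue. The set held every gene whose symbol starts with Sprr (small proline-rich proteins) or Lce (late cornified envelope proteins), together with Lor, Ivl, Flg, Flg2, Hrnr, Rptn, Tchh, Crct1, Cnfn, Tgm1, Tgm3, Evpl, Ppl and Cdsn. The gene table listed 52 such genes, and 48 of them were measured by 55 probes, out of 21368 named genes on the array. Of these 48, 46 passed the filter on dim probes, which asked for signal well above background in all 3 mice of either group.

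Expression was measured with single-colour Agilent arrays in tongue RNA of 6 iDek mice on a C57Bl6 background. The labels describe iDek as a doxycycline-inducible Dek genotype, ubiquitous and squamous cell-specific, and all 6 mice carried it. Dek encodes a chromatin-associated protein. In 3 mice doxycycline (DOX) was given for 2 weeks, and 3 mice were untreated (no DOX). The comparison asks what 2 weeks of induction did to tongue expression. DOX-treated animals lacking the transgene were not analysed here, so effects of the drug and of the induced gene cannot be told apart. The labels do not say which promoter acts in which tongue cells. The series title names a carcinogen, and the sample labels name none.

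Values are log2 signals relative to the 75th percentile of the same array, called normalised log2 signal. They are given for replicates 1, 2 and 3 in that order, and the level of one probe cannot be set against that of another. Log2 changes carry their standard error (±), with n = 3 mice in each group. Between 56.0% and 58.3% of 55681 probes per array were well above background. Precision is limited by the 6 arrays. Dek itself had 2.41, 2.41 and 2.27 in DOX mice, against 2.30, 2.10 and 2.20 in no DOX mice, and its log2 change of 0.17 ± 0.11 had an adjusted p of 0.459 (limma), short of the threshold. Which part of the transcript this probe reads is unknown here, so the value does not check the labels. Suprabasal keratins such as Krt13, Krt4 and Krt76 were well above background on all 6 arrays, as were all 12 skeletal muscle markers, so the labelled tongue tissue carried its defining markers.

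In cornifying epithelium, keratinocytes that leave the basal layer first lay down involucrin, envoplakin and periplakin under the plasma membrane. Transglutaminases then cross-link loricrin, small proline-rich and late cornified envelope proteins onto this scaffold until the shell replaces the membrane. Most of these precursor genes lie side by side in the epidermal differentiation complex, and small proline-rich genes are known as genes that respond to stress and injury of the epithelium. The dorsal tongue of the mouse is covered by filiform papillae, which cornify.

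Of the 52 listed genes, 46 lay on chromosome 3 and 6 elsewhere. RefSeq promoter windows of build GRCm38.p6, from 250 bases before to 50 bases after a gene's start, were found for 42 of the 48 measured genes. The 250 bases before the start are shown for 3 Sprr2 genes that were far highest in DOX replicate 1, for Sprr2a2, whose window and brightest probe differed from theirs, for 2 Lce1 genes with the lowest p-values of the set, and for Lor, the gene of the major precursor loricrin. Capitals mark matches to the AP-1 motif TGANTCA, the octamer motif ATTTGCAT and the TATA motif TATAAA, searched on both strands.
Sprr2b: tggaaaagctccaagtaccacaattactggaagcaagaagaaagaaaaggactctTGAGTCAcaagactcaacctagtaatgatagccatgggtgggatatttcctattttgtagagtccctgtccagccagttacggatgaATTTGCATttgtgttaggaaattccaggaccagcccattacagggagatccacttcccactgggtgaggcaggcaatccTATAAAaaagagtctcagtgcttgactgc
Sprr2d: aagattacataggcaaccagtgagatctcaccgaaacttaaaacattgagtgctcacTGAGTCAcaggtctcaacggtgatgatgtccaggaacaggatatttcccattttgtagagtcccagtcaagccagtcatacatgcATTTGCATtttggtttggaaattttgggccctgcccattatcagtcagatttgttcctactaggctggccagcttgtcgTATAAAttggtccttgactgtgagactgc
Sprr2e: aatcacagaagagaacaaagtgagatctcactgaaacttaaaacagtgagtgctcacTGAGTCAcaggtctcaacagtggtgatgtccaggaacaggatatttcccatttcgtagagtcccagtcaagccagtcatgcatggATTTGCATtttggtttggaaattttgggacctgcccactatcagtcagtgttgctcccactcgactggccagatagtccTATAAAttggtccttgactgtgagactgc
Sprr2a2: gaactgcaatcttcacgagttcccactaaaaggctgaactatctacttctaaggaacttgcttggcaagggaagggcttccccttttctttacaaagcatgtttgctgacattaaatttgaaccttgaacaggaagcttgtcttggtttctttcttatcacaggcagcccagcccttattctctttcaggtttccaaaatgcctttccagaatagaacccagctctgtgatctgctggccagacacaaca
Lce1e: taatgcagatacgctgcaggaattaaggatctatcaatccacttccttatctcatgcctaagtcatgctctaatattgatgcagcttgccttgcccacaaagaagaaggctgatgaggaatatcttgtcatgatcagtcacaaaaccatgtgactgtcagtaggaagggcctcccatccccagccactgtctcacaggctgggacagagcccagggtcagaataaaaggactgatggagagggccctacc
Lce1m: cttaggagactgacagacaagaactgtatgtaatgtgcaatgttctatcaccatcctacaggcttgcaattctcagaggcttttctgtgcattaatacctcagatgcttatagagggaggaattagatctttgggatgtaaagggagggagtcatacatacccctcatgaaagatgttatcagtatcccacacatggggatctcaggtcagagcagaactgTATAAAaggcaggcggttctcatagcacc
Lor: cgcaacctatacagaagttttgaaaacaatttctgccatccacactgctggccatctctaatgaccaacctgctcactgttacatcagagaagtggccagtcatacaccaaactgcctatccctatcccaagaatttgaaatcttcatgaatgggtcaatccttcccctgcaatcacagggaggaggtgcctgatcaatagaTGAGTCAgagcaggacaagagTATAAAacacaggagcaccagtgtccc
The windows are Sprr2b at chr3:92316455-92316704, plus strand, Sprr2d at chr3:92338890-92339139, plus strand and Sprr2e at chr3:92351893-92352142, plus strand. Sprr2a2 is at chr3:92250397-92250646, plus strand, Lce1e at chr3:92709075-92709324, minus strand, Lce1m at chr3:93019062-93019311, minus strand and Lor at chr3:92083143-92083392, minus strand.

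The motifs were chosen after the values were seen, and a match is a description of the letters only. All 3 motifs were present in 7 of 7 windows of Sprr2 genes other than the Sprr2a copies. Among all 32851 windows in the table, AP-1 was found in 7.81%, the octamer in 1.74% and TATAAA in 13.6%. In those 7 windows the octamer began 108 to 112 bases before the start and TATAAA began 29 bases before it. None of the 3 motifs was present in the 3 Sprr2a windows. AP-1 and the octamer were present in 0 of 13 Lce1 windows and 0 of 6 Lce3 windows, and TATAAA in 2 of 13 Lce1 windows and 1 of 6 Lce3 windows. Lor held an AP-1 match 48 bases before its start. Over all 47 member windows, AP-1 was in 14, the octamer in 7 and TATAAA in 20. AP-1 and TATAAA were both in 2 of 2 Sprr1 windows and in those of Lor, Ivl, Flg and Rptn. Further motifs were searched in the same windows, and they may overlap the first ones. The antioxidant response element TGACNNNGC was in 3 of 6 Lce3 windows, 1 of 13 Lce1 windows and 1 of 7 Sprr2 windows, against 12.4% of all windows. The KLF motif CACCC was in 2 of 7 Sprr2 windows, 6 of 13 Lce1 windows and 57.5% of all windows, and the E-box CACGTG was in 0 of 7, 0 of 13 and 7.15%.

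Sequence identity between windows was 67.3% to 89.7% for the 21 pairs of Sprr2 genes outside the Sprr2a copies, with a median of 70.3%. Sprr2d and Sprr2e were the closest pair of these. The 78 Lce1 pairs had 59.3% to 86.3%, with a median of 69.7%. Between Sprr2 and Lce1 genes, the 91 pairs had 57.7% to 66.0%, with a median of 61.3%. The Sprr2a copies were 90.7% to 100% identical with each other and 58.7% to 61.7% identical with the other Sprr2 windows. Probe sequences were not used here, so the share of a probe's signal that comes from a near-identical family member is unknown.

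None of the 46 tested cornified envelope genes passed the threshold in either direction, an adjusted p under 0.05 from limma with Benjamini-Hochberg adjustment over all 26246 features (named genes and unnamed probes). In all, 73 of those 26246 rose (0.278%) and 33 fell (0.126%). The lowest adjusted p in the set was 0.0865, for Lce1m. At an unadjusted p under 0.05, 22 of the 46 were higher with DOX and 0 lower, against 9.01% higher and 9.53% lower over all features tested. In 23 of the 46 all 3 DOX arrays lay above all 3 no DOX arrays, and in 0 they lay below, against 12.7% and 12.6% over all features. The mean was higher in DOX mice for 40 genes and lower for 6. The median log2 change was 0.81, or 1.75-fold, against -0.01 over all features. Over all 48 measured genes, with no filter, the median was 0.79, against 0.07 over all features without the filter. In tissue RNA, a different number of cornifying cells and a different amount of RNA per cell cannot be told apart.

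Of the 23 genes whose groups did not overlap, 20 were Lce genes, and the others were Sprr2b, Sprr1b and Rptn. In 20 of 21 Lce genes every DOX array lay above every no DOX array. DOX replicate 1 was the highest array in 9 of 10 Sprr2 genes, with DOX replicate 3 among or below the no DOX arrays in several of them. Over all 26246 features, DOX replicate 1 was the highest array in 4771. The core precursors, scaffold proteins and enzymes had groups that overlapped. The members share genomic neighbourhood and family sequence, so they do not count as independent observations.

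**Figure D1:**
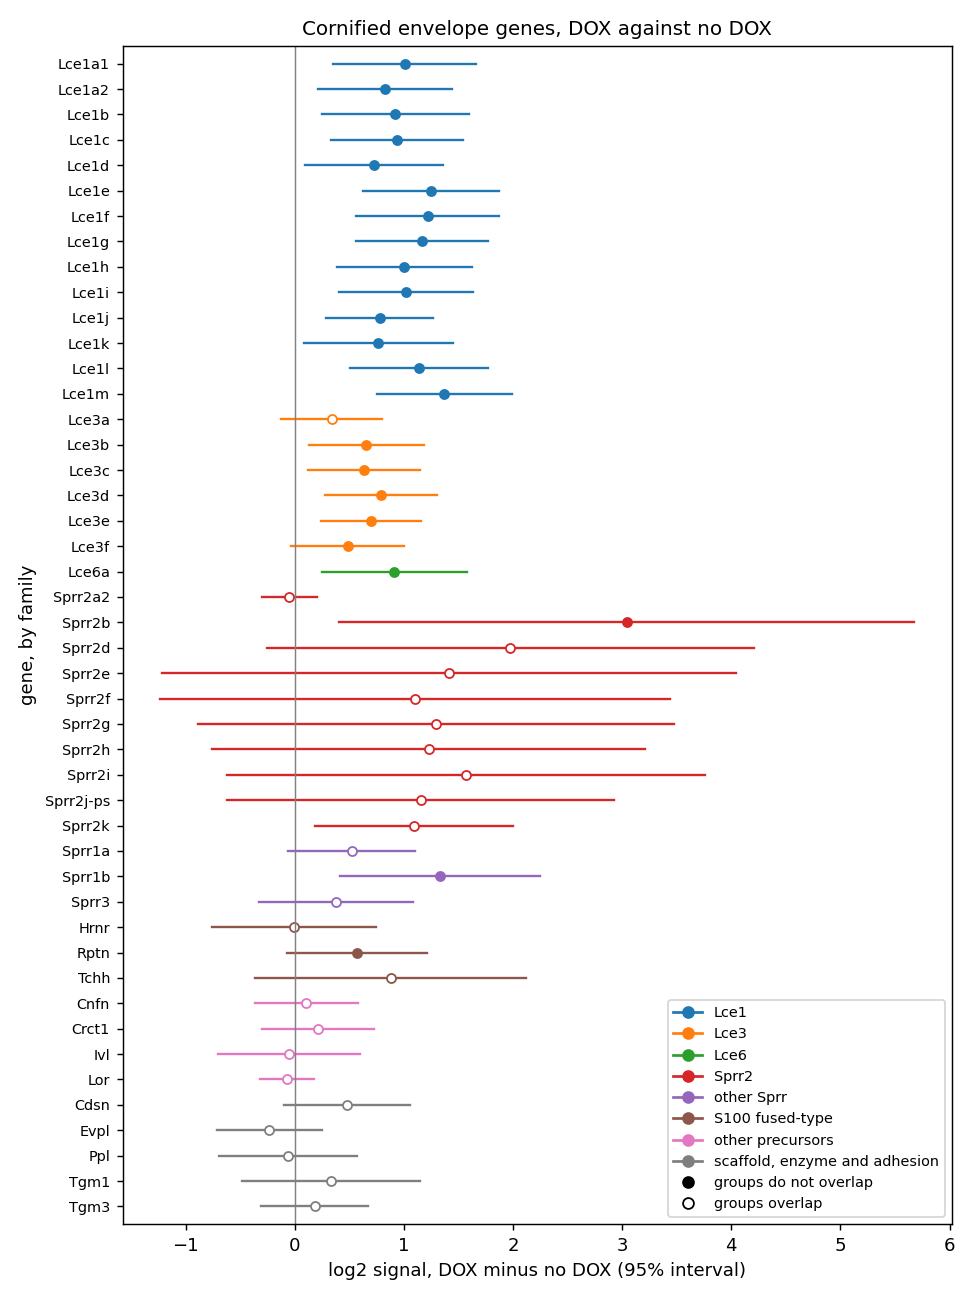
Log2 change with its 95% interval (limma) for the 46 tested genes, grouped by family, with DOX minus no DOX on the horizontal axis. Filled points are genes whose groups did not overlap. The 14 Lce1 genes sit between 0.72 and 1.37, 8 of the 10 Sprr2 intervals are wider than that of any other gene, and Lor sits at -0.07.

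The Lce1 family, the late precursors deposited in the upper layers, was higher in DOX mice in all 14 genes measured. Their median log2 change was 1.01, or 2.01-fold, with a range of 0.72 to 1.37 and adjusted p-values of 0.0865 to 0.230 (limma), so none passed the test. Lce1m had normalised log2 signals of -0.33, -0.76 and 0.27 in DOX mice, against -1.68, -1.49 and -1.75 in no DOX mice. It was 2.58-fold (95% interval 1.68 to 3.96) higher. Lce1e had 5.73, 5.17 and 6.21 in DOX mice, against 4.61, 4.43 and 4.33 in no DOX mice, and was 2.37-fold (95% interval 1.54 to 3.65) higher (limma, adjusted p = 0.098). In both genes the lowest DOX array lay above the highest no DOX array.

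Lce1f had 5.84, 5.41 and 6.46 in DOX mice, against 4.92, 4.66 and 4.47 in no DOX mice, with a log2 change of 1.22 ± 0.27. Lce1g had 5.11, 4.56 and 5.50 in DOX mice, against 4.10, 3.90 and 3.66 in no DOX mice, with a log2 change of 1.17 ± 0.25. Lce1l, near the end of the Lce1 block, had 2.70, 2.28 and 3.31 in DOX mice, against 1.78, 1.69 and 1.41 in no DOX mice, with a log2 change of 1.14 ± 0.26. These 3 genes and the pair above had the largest changes of the family, and all had adjusted p-values of 0.0865 to 0.114.

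Lce1i had 6.46, 6.22 and 7.16 in DOX mice, against 5.78, 5.62 and 5.38 in no DOX mice, a log2 change of 1.02 ± 0.25. Lce1a1 had 6.53, 5.89 and 6.93 in DOX mice, against 5.59, 5.55 and 5.19 in no DOX mice, a log2 change of 1.01 ± 0.27. Lce1h had 4.44, 4.15 and 5.11 in DOX mice, against 3.76, 3.60 and 3.33 in no DOX mice, a log2 change of 1.00 ± 0.26. Each was about 2.00-fold to 2.03-fold higher in DOX mice. Lce1c had 5.96, 5.45 and 6.45 in DOX mice, against 5.11, 5.08 and 4.84 in no DOX mice, and its log2 change was 0.94 ± 0.25. Lce1b had 5.31, 4.88 and 5.94 in DOX mice, against 4.64, 4.55 and 4.17 in no DOX mice, and its log2 change was 0.92 ± 0.28. Lce1a2 had 7.23, 6.78 and 7.73 in DOX mice, against 6.56, 6.54 and 6.14 in no DOX mice, and its log2 change was 0.83 ± 0.26. In these genes DOX replicate 2 came closest to the no DOX arrays.

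Lce1j had 4.36, 3.95 and 4.76 in DOX mice, against 3.54, 3.65 and 3.54 in no DOX mice, and Lce1k had 4.70, 4.11 and 5.19 in DOX mice, against 4.02, 4.08 and 3.60 in no DOX mice. Lce1d had 6.69, 6.40 and 7.34 in DOX mice, against 6.24, 6.24 and 5.78 in no DOX mice. These were the smallest changes of the family, at log2 0.78 ± 0.21, 0.77 ± 0.28 and 0.72 ± 0.26. In Lce1k the margin between the lowest DOX array and the highest no DOX array was 4.11 against 4.08. The arrays kept 1 order throughout the family. DOX replicate 3 was highest, DOX replicate 1 next and DOX replicate 2 lowest of the DOX arrays in 14 of 14 genes. No DOX replicate 3 was the lowest of all 6 arrays in 14 of 14. Over all 26246 features, DOX replicate 3 was the highest array in 3866 and no DOX replicate 3 the lowest in 4164. The median over the family was 0.91, 0.52 and 1.52 above the no DOX mean in DOX replicates 1 to 3. Leaving out any 1 array gave family medians between 0.74 and 1.21.

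The Lce3 family, known in human skin for its induction after barrier damage, was also higher on average. The median log2 change was 0.64 over 6 genes, with adjusted p-values of 0.145 to 0.399 (limma). Lce3d had 9.14, 8.42 and 9.12 in DOX mice, against 8.17, 8.19 and 7.95 in no DOX mice, a log2 change of 0.79 ± 0.22. Lce3e had 7.02, 7.03 and 7.60 in DOX mice, against 6.33, 6.57 and 6.66 in no DOX mice, a log2 change of 0.70 ± 0.19. Both were separated from the no DOX arrays. Lce3b had 8.94, 8.17 and 8.90 in DOX mice, against 7.96, 8.13 and 7.96 in no DOX mice, and Lce3c had 8.89, 8.29 and 9.06 in DOX mice, against 8.00, 8.29 and 8.05 in no DOX mice. Lce3f had 6.27, 6.07 and 6.89 in DOX mice, against 6.001, 5.92 and 5.86 in no DOX mice. In these 3 genes DOX replicate 2 lay just above the no DOX arrays, and the log2 changes were 0.65 ± 0.22, 0.63 ± 0.21 and 0.48 ± 0.22. Lce3a was the 1 Lce gene whose groups overlapped, with 8.57, 8.09 and 8.76 in DOX mice, against 8.10, 8.30 and 8.00 in no DOX mice. Its log2 change was 0.34 ± 0.19.

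Lce6a, a single late envelope gene next to the Lce1 block, had 1.85, 0.76 and 1.56 in DOX mice, against 0.53, 0.57 and 0.32 in no DOX mice. Its log2 change was 0.91 ± 0.28 (limma, adjusted p = 0.169), and its groups did not overlap. Over all 21 Lce genes, 20 had groups that did not overlap, the median log2 change was 0.91, and the SD over the 3 arrays had a median of 0.49 in DOX mice and 0.17 in no DOX mice. The highest array was DOX replicate 3 in 18 genes and DOX replicate 1 in 3.

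**Figure D2:**
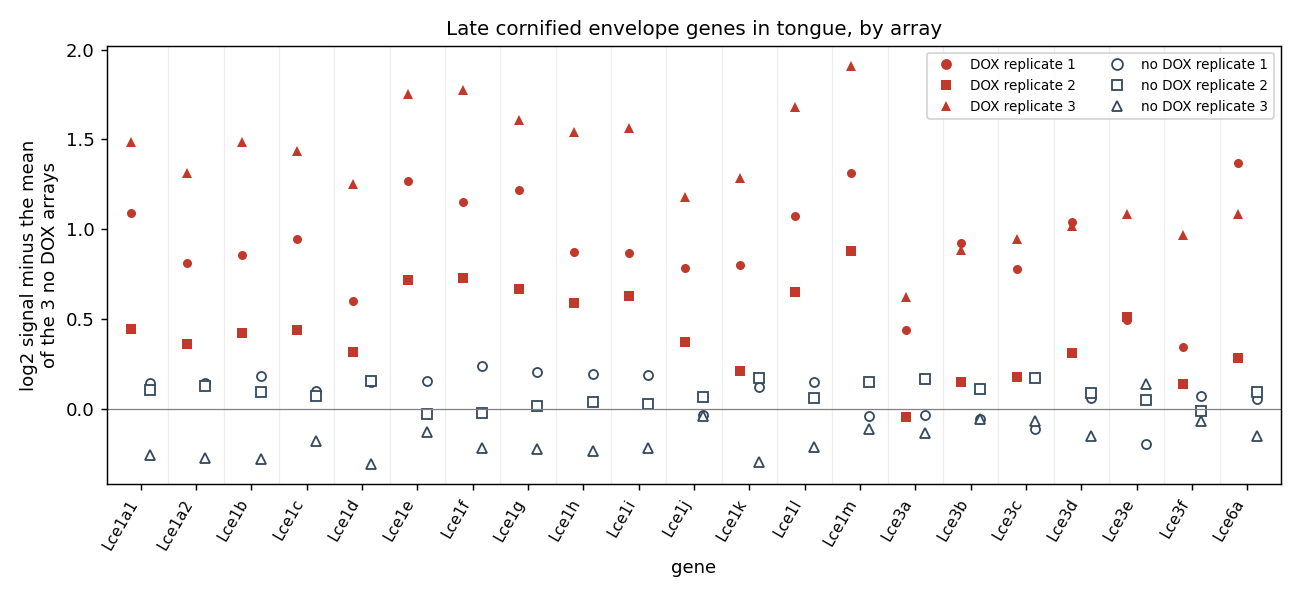
Normalised log2 signal minus the mean of the 3 no DOX arrays (vertical axis) for the 21 Lce genes, with 1 filled point per DOX array and 1 open point per no DOX array. All 3 DOX points lie above all no DOX points in every gene but Lce3a, and DOX replicate 3 is the top point in 18 of 21.

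The Sprr2 genes, which encode small proline-rich cross-bridging proteins of the envelope, were high mostly in 1 animal. Sprr2d had 9.39, 6.63 and 5.45 in DOX mice, against 5.25, 4.797 and 5.50 in no DOX mice. Sprr2e had 5.50, 2.58 and 0.71 in DOX mice, against 1.35, 1.63 and 1.57 in no DOX mice. Sprr2b had 3.85, 0.29 and -0.54 in DOX mice, against -2.41, -1.996 and -1.11 in no DOX mice. In all 3 genes DOX replicate 1 stood far above every other array, while DOX replicate 3 lay among the no DOX arrays for Sprr2d and below them for Sprr2e. Sprr2b was the 1 Sprr2 gene whose groups did not overlap. It was 8.22-fold (95% interval 1.32 to 51.1) higher, a log2 change of 3.04 ± 1.099 short of the threshold (limma, adjusted p = 0.222).

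Sprr2i had 7.68, 4.87 and 3.94 in DOX mice, against 3.61, 3.64 and 4.53 in no DOX mice. Sprr2g had 6.56, 3.91 and 2.68 in DOX mice, against 3.44, 2.98 and 2.85 in no DOX mice, and Sprr2f had 6.24, 3.50 and 2.03 in DOX mice, against 3.09, 2.73 and 2.63 in no DOX mice. The same mouse led each of them, and the groups overlapped. The gene table lists Sprr2g and Sprr2j-ps as transcribed pseudogenes. Sprr2h had 6.08, 3.70 and 2.60 in DOX mice, against 2.71, 2.64 and 3.36 in no DOX mice. Sprr2j-ps had 5.23, 2.67 and 2.28 in DOX mice, against 2.34, 1.95 and 2.43 in no DOX mice. Sprr2k had 2.50, 1.27 and 1.68 in DOX mice, against 0.39, 0.47 and 1.32 in no DOX mice, with the smallest lead of DOX replicate 1 among these genes. The log2 changes were 1.97 ± 0.93 for Sprr2d, 1.57 ± 0.91 for Sprr2i, 1.41 ± 1.096 for Sprr2e, 1.29 ± 0.91 for Sprr2g and 1.23 ± 0.83 for Sprr2h. They were 1.15 ± 0.74 for Sprr2j-ps, 1.11 ± 0.97 for Sprr2f and 1.09 ± 0.38 for Sprr2k.

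The median over the 10 Sprr2 genes was 3.44, 0.81 and 0.01 above the no DOX mean in DOX replicates 1 to 3. The arrays ran in the order DOX replicate 1, 2 and 3 in 8 of 10 genes, an order that no Lce gene showed. The SD among DOX mice was 1.60 to 2.41 in those 8 genes, above that of at least 99.775% of all features tested, while its median over the 10 genes among no DOX mice was 0.33. The median log2 change of the 10 genes was 1.26 with all arrays, 0.24 without DOX replicate 1 and 2.10 without DOX replicate 3. For Sprr2b it was 1.71 without DOX replicate 1 (limma, adjusted p = 0.239), and for Sprr2e it was 0.13 (limma, adjusted p = 0.956).

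Sprr2a2 was read by 3 probes, and its brightest probe had 8.15, 8.09 and 8.22 in DOX mice, against 8.10, 8.19 and 8.32 in no DOX mice, a log2 change of -0.05 ± 0.11. These 6 arrays lay within a narrow range. The second probe had 8.49, 6.79 and 5.80 in DOX mice, against 9.14, 8.88 and 6.50 in no DOX mice, a difference of -1.14. The third had -0.35, -2.95 and -4.46 in DOX mice, against -0.33, -0.99 and -3.67 in no DOX mice, a difference of -0.92, and was well above background on 2 of 3 DOX arrays. Both further probes were highest in DOX replicate 1 among DOX mice, as in the other Sprr2 genes, but their groups overlapped, their highest array was no DOX replicate 1, and their means were lower with DOX. No DOX replicate 3 was far below the other no DOX arrays for both, so these 2 probes ran alike and the brightest differed from them.

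Other genes measured on these arrays were also highest in DOX replicate 1, which was the highest array in 4771 of all 26246 features. S100a8, an alarm protein of neutrophils and stressed keratinocytes, was 4.08, 1.43 and 0.07 above its no DOX mean in DOX replicates 1 to 3, and its partner S100a9 was 3.22, 1.48 and 0.24 above. Among the suprabasal and papilla keratins, Krt16 was at 1.72, 0.83 and -0.10, Krt17 at 2.08, 0.77 and 0.05, and Krt6a at 1.46, 0.40 and 0.01. DOX replicate 1 was the highest array in 6 of the 15 keratins of that list. The kallikrein protease Klk6 was at 5.72, 2.77 and 2.18. The summed linear level of the 9 tested of 12 neutrophil markers, in which bright probes weigh most, was 1459, 527 and 351.2 in DOX mice, against 335.8, 295.3 and 430.7 in no DOX mice. Without S100a8 and S100a9, the sum of the other 7 was 242.6, 228.2 and 227.3 in DOX mice, against 247.3, 221.9 and 236.04 in no DOX mice. Most of this sum came from Csf3r, so the sum says little about the dimmer markers. Csf3r had 7.74, 7.69 and 7.77 in DOX mice, against 7.89, 7.76 and 7.83 in no DOX mice. The granule protein gene Ltf had 4.74, 4.26 and 2.81 in DOX mice, against 3.18, 1.62 and 2.49 in no DOX mice, a log2 change of 1.51 ± 0.58 with overlapping groups (limma, adjusted p = 0.242), and it too was highest in DOX replicate 1. Elane was at 0.94 ± 0.50 with groups that did not overlap. Retnlg was at -1.49 ± 0.72, Mpo at -0.62 ± 0.35, Camp at -0.18 ± 0.24, Csf3r at -0.10 ± 0.10 and Cxcr2 at 0.05 ± 0.16, each with overlapping groups. Retnlg and Mpo were well above background on 1 DOX array each. Ngp, Mmp8 and Mmp9 did not exceed background clearly in any mouse. DOX replicate 1 also shared slide row 1 with the 3 no DOX arrays, while DOX replicates 2 and 3 lay in row 2. Fitted with the slide row as a block, a value that rests on DOX replicate 1 alone against the 3 no DOX arrays, the Sprr2 median was 3.44 and the Lce median 0.87. The part of neutrophil RNA in the Sprr2 values was not tested.

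**Figure D3:**
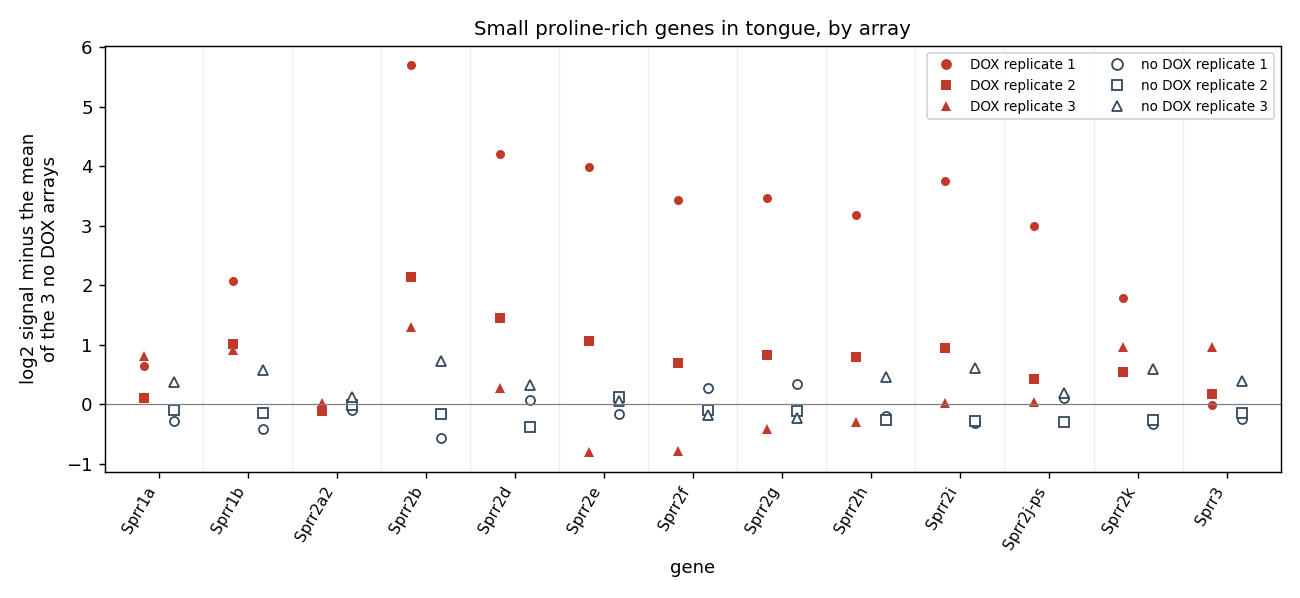
Normalised log2 signal minus the mean of the 3 no DOX arrays (vertical axis) for the 13 tested Sprr genes, with 1 filled point per DOX array and 1 open point per no DOX array. DOX replicate 1 is the top point in 9 of 10 Sprr2 genes, and the brightest probe of Sprr2a2 lies near 0 on every array.

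**Figure D4:**
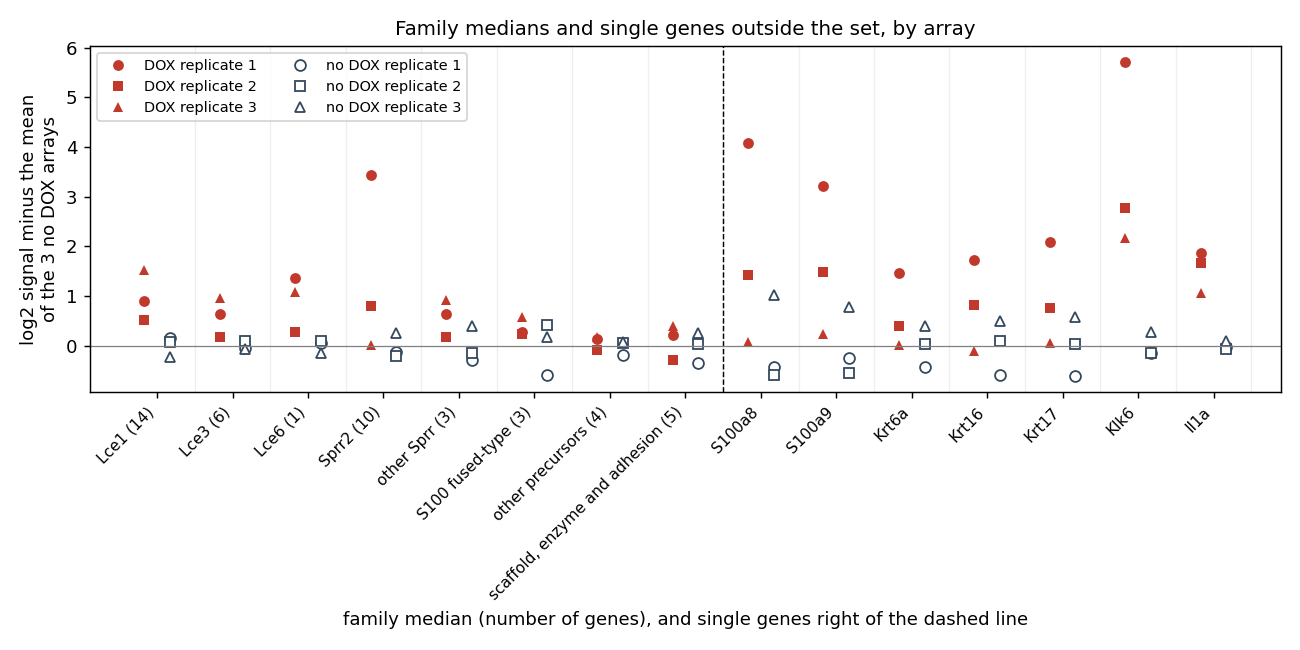
Family medians (left of the dashed line, number of genes in brackets) and single genes outside the set (right) as normalised log2 signal minus the mean of the 3 no DOX arrays, 1 point per array. Lce1 is highest in DOX replicate 3 at 1.52, whereas Sprr2 is highest in DOX replicate 1 at 3.44, as are S100a8, S100a9, Krt6a, Krt16, Krt17 and Klk6.

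Among the other small proline-rich genes, Sprr1b, an inducible precursor of squamous differentiation, had 7.23, 6.16 and 6.07 in DOX mice, against 4.74, 5.01 and 5.73 in no DOX mice. It was 2.51-fold (95% interval 1.33 to 4.74) higher and its groups did not overlap (limma, adjusted p = 0.158). Without DOX replicate 1 its log2 change was 0.96, against 1.33 ± 0.38 with all arrays. Sprr1a had 7.56, 7.03 and 7.72 in DOX mice, against 6.63, 6.82 and 7.29 in no DOX mice, and Sprr3, an abundant small proline-rich protein of oral and oesophageal epithelium, had 6.07, 6.25 and 7.04 in DOX mice, against 5.82, 5.93 and 6.47 in no DOX mice. Their log2 changes were 0.52 ± 0.24 and 0.38 ± 0.30, and the groups overlapped in both.

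The S100 fused-type genes encode large repeat proteins related to filaggrin. Repetin (Rptn), a papilla and envelope precursor, had 5.48, 5.43 and 6.39 in DOX mice, against 5.05, 5.31 and 5.24 in no DOX mice. The DOX arrays lay above the no DOX arrays, with a log2 change of 0.57 ± 0.27 (limma, adjusted p = 0.316) that was 0.25 without DOX replicate 3. Trichohyalin (Tchh), which reinforces keratin filaments in hair sheath and filiform papillae, had 5.76, 5.06 and 4.95 in DOX mice, against 3.18, 4.84 and 5.11 in no DOX mice. Hornerin (Hrnr) had 2.40, 1.84 and 2.61 in DOX mice, against 1.69, 2.71 and 2.47 in no DOX mice. In both genes no DOX replicate 1 was the lowest array and the groups overlapped, with log2 changes of 0.88 ± 0.52 and -0.01 ± 0.31. For Tchh the change was 0.28 without no DOX replicate 1.

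The core precursors had overlapping groups. Loricrin (Lor) had 9.66, 9.76 and 9.82 in DOX mice, against 9.74, 9.85 and 9.86 in no DOX mice, and its log2 change of -0.07 ± 0.10 had a 95% interval of -0.32 to 0.17. Involucrin (Ivl) had -3.11, -3.38 and -4.06 in DOX mice, against -3.79, -3.24 and -3.37 in no DOX mice with its brighter probe, a log2 change of -0.05 ± 0.27. Cysteine-rich Crct1 had 8.73, 8.57 and 9.36 in DOX mice, against 8.54, 8.76 and 8.72 in no DOX mice, and cornifelin (Cnfn) had 8.85, 8.43 and 8.98 in DOX mice, against 8.39, 8.66 and 8.90 in no DOX mice. Their log2 changes were 0.21 ± 0.21 and 0.10 ± 0.20. All 4 had adjusted p-values of 0.657 to 0.945 (limma). As a fold change the interval of Lor is 0.804 to 1.13 and that of Ivl 0.613 to 1.52.

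The cross-linking enzymes and scaffold proteins also had overlapping groups. Tgm1, the membrane-anchored transglutaminase of the envelope, had 5.16, 3.87 and 4.41 in DOX mice, against 3.80, 4.17 and 4.47 in no DOX mice. Tgm3, the soluble transglutaminase of late differentiation, had 5.37, 5.08 and 5.56 in DOX mice, against 4.82, 5.18 and 5.47 in no DOX mice. Their log2 changes were 0.33 ± 0.34 and 0.18 ± 0.20. The plakins envoplakin (Evpl) and periplakin (Ppl), which tie the envelope to desmosomes and keratin filaments, had lower means with DOX. Evpl had 7.44, 7.45 and 8.00 in DOX mice, against 7.65, 7.82 and 8.11 in no DOX mice, a log2 change of -0.23 ± 0.20. Ppl had 5.06, 5.11 and 5.98 in DOX mice, against 5.24, 5.51 and 5.59 in no DOX mice, a log2 change of -0.06 ± 0.26. Corneodesmosin (Cdsn), the adhesive protein of corneodesmosomes, had 6.83, 6.22 and 6.95 in DOX mice, against 5.84, 6.37 and 6.36 in no DOX mice, a log2 change of 0.47 ± 0.24.

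Of 6 genes with several tested probes, 3 had probes that ran alike. The second probes of Lce1a2, Lce1c and Lce1i gave log2 changes of 0.90, 0.89 and 1.05, each with groups that did not overlap. The second probe of Ivl gave 0.21 and that of Tgm3 gave -0.18, both opposite in sign to the brighter probe and both with overlapping groups. That of Ivl entered the test only through the DOX arrays and was well above background on 2 of 3 no DOX arrays. The 2 measured genes that did not pass the filter were Flg2 and Sprr4. Flg2 did not exceed background clearly in any mouse, with normalised log2 signals from -6.90 to -5.86. Sprr4 was well above background on 1 DOX array, with values from -5.78 to -4.16. Flg, Sprr2a1, Sprr2a3 and Sprr2c-ps were matched by no probe and were not analysed here.

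Along the chromosome, the 70 genes of the table from Lor to Tchh held 46 members of the set, and 6 other genes among them were tested. All 6 had a higher mean with DOX, and in 2 the groups did not overlap, against 12.7% of all features with DOX higher. The first was Lelp1, between Lor and the Sprr2 genes, with a log2 change of 1.06 ± 0.33. The other was 2310050C09Rik, between Lce1l and Lce3a, with 5.08, 3.75 and 4.62 in DOX mice, against 1.70, 2.42 and 2.17 in no DOX mice. Its log2 change was 2.39 ± 0.36, short of the threshold (limma, adjusted p = 0.0623). From Lce6a to Lce3f, every tested gene had a higher mean with DOX, and the groups overlapped only in Lce3a and Kprp. Lor and Ivl, which flank the Sprr block, were at -0.07 and -0.05 on the same scale.

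**Figure D5:**
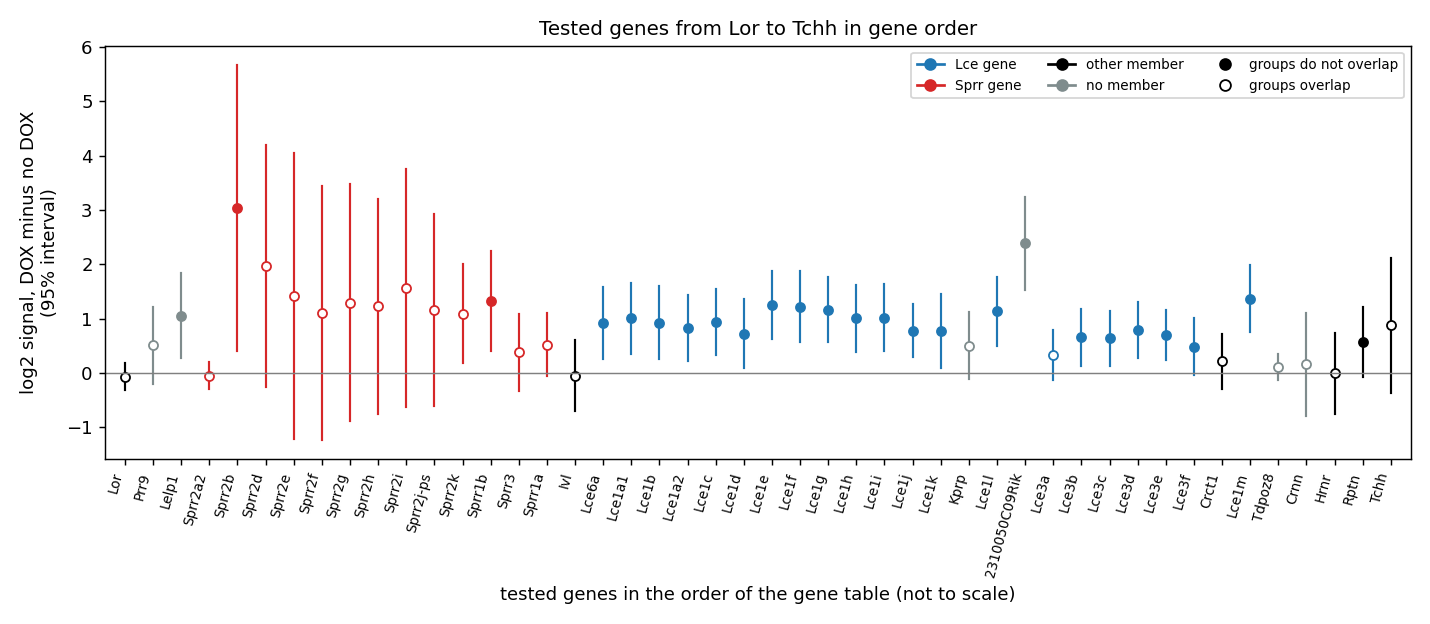
Log2 change with its 95% interval (limma), DOX minus no DOX, for the tested genes from Lor to Tchh in the order of the gene table, not to scale. Filled points are genes whose groups did not overlap. The points of the Lce genes lie above 0, with 2310050C09Rik at 2.39 inside it and Lor and Ivl near 0.

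Other genes of barrier formation were read from 8 lists, and 0 of their genes passed the test in either direction. Over all features the mean was higher with DOX in 48.9%, and the groups did not overlap in 12.7% with DOX higher and in 12.6% with DOX lower. Of 16 other envelope proteins, means were higher in DOX mice for 8 and lower for 8, and the median log2 change was 0.02. Tchhl1, a relative of trichohyalin, had 2.08, 1.68 and 1.47 in DOX mice, against -1.75, -0.67 and 0.51 in no DOX mice, a log2 change of 2.37 ± 0.54 (limma, adjusted p = 0.108), and with Lelp1 made up the 2 (12.5%) whose groups did not overlap. Of 21 proteases and inhibitors of desquamation and envelope processing, 18 (85.7%) were on average higher in DOX mice, 7 (33.3%) had groups that did not overlap with DOX higher, and the median was 0.20. Padi3, 1 of these 7, entered the test only through the DOX arrays and was well above background on 1 of 3 no DOX arrays. Klk5, a kallikrein that starts the desquamation cascade, had 2.67, 1.87 and 2.29 in DOX mice, against 0.67, 1.45 and 1.13 in no DOX mice, a log2 change of 1.19 ± 0.27 (limma, adjusted p = 0.108). Ctsl, a lysosomal cysteine protease, had a log2 change of 0.43 ± 0.10 (limma, adjusted p = 0.12).

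The 5 tested transglutaminases outside the set had a median log2 change of 0.14 and none with separated groups. Tgm4 was at 0.28 ± 0.13 and Tgm5 at -0.33 ± 0.23. The 22 barrier lipid genes had a median of 0.05. The lipoxygenase Alox12e was the 1 (4.55%) with groups that did not overlap, lower with DOX, at -0.38, -0.09 and -0.25 in DOX mice, against 2.96, 2.62 and 0.77 in no DOX mice. Its log2 change was -2.36 ± 0.54 (limma, adjusted p = 0.113), and without no DOX replicate 3 it was -3.03 and passed (limma, adjusted p = 0.0175). The lipid transporter Abca12 was at 0.55 ± 0.23.

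Desmosome and junction genes had a lower mean with DOX in 14 of 18, with a median of -0.20. The desmosomal cadherins Dsc2 and Dsg2 had log2 changes of -0.61 ± 0.19 and -0.53 ± 0.16, and were the 2 (11.1%) with groups that did not overlap. The 15 suprabasal and papilla keratins had a median of 0.17, with Krt23 at -0.61 ± 0.20 and Krt2 at 0.45 ± 0.19. The 13 S100 genes of the same gene cluster had a median of 0.01, with S100a9 at 1.65 ± 0.75 and S100a8 at 1.86 ± 1.01. Among 32 regulators of envelope genes the median was -0.04, with 3 genes higher (9.38%) and 6 lower (18.8%) whose groups did not overlap. Il1a, an alarm cytokine of keratinocytes, had -2.37, -2.57 and -3.17 in DOX mice, against -4.26, -4.30 and -4.13 in no DOX mice, a log2 change of 1.53 ± 0.21 (limma, adjusted p = 0.0527). Without DOX replicate 3 it was 1.76 and passed (limma, adjusted p = 0.0378). Nfe2l2, which encodes the antioxidant regulator NRF2, had a log2 change of 0.50 ± 0.15.

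Markers of the cells in tongue were read beside these results. The 13 basal keratinocyte markers had a lower mean with DOX in 10, with a median log2 change of -0.36 and 5 genes lower (38.5%) whose groups did not overlap, against 12.6% of all features. Dst and Itga6 had the lowest p-values, at -1.14 ± 0.27 and -0.49 ± 0.13. The 9 suprabasal tongue keratinocyte markers had a median of -0.02, and their summed level was 2006, 1546 and 1634 in DOX mice, against 1226, 1528 and 1747 in no DOX mice. In these sums the groups overlapped. The lowest p-values were those of Krt16 at 0.82 ± 0.49 and the epidermal keratin Krt1 at 1.11 ± 0.70. Skeletal muscle markers (12 genes) had a median of 0.06, with Myh1 at 0.33 ± 0.21 and Mylpf at 0.34 ± 0.23, and a summed level of 3866 to 4887 in DOX mice and 3679 to 4873 in no DOX mice. Of 11 salivary and lingual gland markers, 5 were higher (45.5%, against 12.7% of all features) and 3 lower (27.3%, against 12.6%) with groups that did not overlap. Car6, 1 of these 5, entered the test only through the DOX arrays and was well above background on 2 of 3 no DOX arrays. The median log2 change was -0.28, with 5 means higher and 6 lower. Bhlha15 at 1.82 ± 0.28 and Lpo at 2.55 ± 0.46 had the lowest p-values, and the largest difference was that of Bpifa2, a secreted salivary protein, at 6.51 ± 1.64. The 3 lower genes without overlap were Dcpp1 at -0.76 ± 0.29, Dcpp2 at -0.91 ± 0.34 and Dcpp3 at -0.72 ± 0.26. Klk1 had the largest fall, -4.22 ± 1.93, with overlapping groups. None of the 11 passed the test (limma, lowest adjusted p = 0.0672). The summed level was 2067 to 2426 in DOX mice and 2041 to 2532 in no DOX mice. In this sum, as in the suprabasal and muscle sums above, bright probes weigh most. Such sums say little about the dimmer markers and do not measure the amount of a tissue.

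The 9 neutrophil markers had a median of 0.05 and the 8 macrophage markers a median of 0.37, with Lyz2 at 1.03 ± 0.17 and C1qc at 0.54 ± 0.20. Of the 8 macrophage markers, 7 had a higher mean with DOX. In 3 (37.5%, against 12.7% of all features) the groups did not overlap, with DOX higher. DOX replicate 2 was the highest array in 7 of the 8, against 4631 of all 26246 features. The 7 T cell markers had a median of -0.40, with Cd4 at 0.31 ± 0.13. Cd8a was the 1 marker gene past the test (limma, adjusted p = 0.0243), and it entered the test only through the no DOX arrays. Its probe was well above background on 0 of 3 DOX arrays and 3 of 3 no DOX arrays, with measured means of -5.86 in DOX mice and -3.92 in no DOX mice. With its DOX values set to the dimmest detected probe of each DOX array, Cd8a was 1.72-fold higher in no DOX mice. That level is the most lenient limit of detection, so the value is not a strict lower bound. Medians were -0.24 for 6 fibroblast genes, with Col3a1 at -1.19 ± 0.29 and Col1a2 at -0.66 ± 0.26, and 0.01 for 6 endothelial genes, with Cdh5 at -0.48 ± 0.22 and Emcn at 0.28 ± 0.24. They were 0.04 for 4 adipocyte genes, with Plin1 at -0.20 ± 0.18 and Adipoq at 0.09 ± 0.22, and 0.12 for 3 taste receptor cell genes, with Gnat3 at 0.70 ± 0.39 and Car4 at 0.12 ± 0.10. Gnat3 entered the test only through the DOX arrays, and its probe was well above background on 1 of 3 no DOX arrays. Trpm5 and Plcb2 of the same list did not pass the filter. The part of these cell types in the values of the cornified envelope genes was not tested.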

How the data were processed

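Cy3-labelled cRNA from the tongues of 6 mice was hybridised to Agilent mouse arrays, 1 array a mouse, per the labels' protocols, which describe separate mice. Per the file headers, Feature Extraction 11.5.1.1 wrote the deposited scanner files, whose processed signal is a linear intensity with the background already subtracted. The 6 arrays shared 1 slide and 1 scan. Spots of a probe were averaged on the log2 scale after 146 to 195 outlier spots an array were dropped, and each array was centred on its 75th percentile over non-control probes. The authors' deposited value table holds the same processed signal intensity times 1 factor per array (3.70 to 3.99), so it is linear, not centred and has no ratio direction. Its medians were 90.01, 97.5 and 93.7 in DOX replicates 1 to 3 and 102.5, 94.2 and 92.7 in no DOX replicates 1 to 3.

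Genes were named by matching accessions to RefSeq (GRCm38.p6): 28331 probes had 1 symbol, 0 several and 27350 none. Since the array design used another build, probes have no coordinates here. The brightest probe stood for a gene. The 26246 features kept were compared with limma 3.58.1 (R 4.3.3, two-sided, Benjamini-Hochberg, threshold 0.05). The fit was also run on simulated data, drawn with independent normal noise and equal spread in both groups. That run does not check the fit for families that move together or for groups of unequal spread. An exact permutation test of 3 arrays against 3 can give no p under 0.1. All measured members were named, and of each list the 2 genes with the lowest p and any past the threshold. S100a8, S100a9, Krt6a, Krt16, Krt17, Klk6, Kprp, 2310050C09Rik, Bpifa2, the other neutrophil markers and the motifs were chosen after their values were seen. So were Klk1, Dcpp1, Dcpp2, Dcpp3, Car6 and Padi3. The members and lists were chosen with earlier results of these data known. Alternatives changed the background correction, scaling, filter, variance model, array weights, block, probe rule or threshold, used the value table, or left out 1 array. Normexp was run on the median signal in place of the planned mean signal, and the planned protein sequences were not used here.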

Additional observations from a re-analysis of the deposited data

How the results depend on the processing

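The count of cornified envelope genes that rose stayed at 0 in 17 of 20 alternatives. It was 2 with array weights (Lce1e, adjusted p = 0.0489, and Lce1m, adjusted p = 0.0466, limma), 1 with the slide row block (Sprr2j-ps, limma adjusted p = 0.0498) and 2 at an adjusted p under 0.1 (Lce1e and Lce1m). No alternative gave a member that fell. The count of members whose groups did not overlap with DOX higher ran from 20 to 30, and leaving out 1 array gave 23 to 30. The share of all features with such groups moved with it, from 10.5% to 12.8% with all arrays and from 15.7% to 19.1% when 1 array was left out, the last beside the count of 30. This count, and the Lce and Sprr2 medians, were added after seeing the data. The members' median log2 change was 0.81 and ran from 0.60 without DOX replicate 1 to 1.04 without DOX replicate 2. The Lce median was 0.91 and ran from 0.68 to 1.17 when 1 array was left out. The Sprr2 median was 1.26, ran from 0.24 to 2.10 when 1 array was left out, and was 3.44 with the slide row block. The median over all features was -0.01, with -0.021 after quantile normalization, -0.036 with the percentile over probes well above background on all arrays, 0.072 without the filter, and -0.018 to 0.0012 when 1 array was left out.

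Over all features, the counts of rises and falls were 73 and 33. They were 159 and 78 with normexp, 8 and 6 without the filter, 279 and 176 with array weights, 22 and 9 with the slide row block and 378 and 282 at an adjusted p under 0.1, and 117 rose with trend and robust settings. Leaving out 1 array gave 1 to 34 rises and 1 to 13 falls. With the replicate number as a block they were 0 and 0 over all features and 0 and 0 among the members. Deviations of arrays with the same number correlated at -0.12, -0.01 and 0.01, so the numbers were not taken to pair the mice. In the barrier lists, the count that rose was 0. It was 1 with only probes well above background on all arrays, 1 with array weights, 1 without DOX replicate 3 and 1 at an adjusted p under 0.1, each of these Il1a, and 2 with the slide row block. The count that fell was 0, and 1 without no DOX replicate 3 (Alox12e).

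Of 874 member values under alternatives, 20 changed sign, in 9 genes, and 37 members never changed sign. Hrnr was at 0.015 with normexp and 0.11 with the slide row block, and ran from -0.31 to 0.21 when 1 array was left out. Ivl was at 0.000127 with array weights, 0.36 with the slide row block and 0.079 with the mean of its probes, and ran from -0.26 to 0.22. Sprr3 was at -0.0071 with the slide row block. When 1 array was left out, Cnfn ran from -0.026 to 0.27, Crct1 from -0.025 to 0.37, Ppl from -0.36 to 0.10, Sprr2a2 from -0.10 to 0.0081, Sprr2f from -0.052 to 2.05 and Tgm1 from -0.0083 to 0.64. The causes were not tested. In the main fit, with 3 mice a group, 0 of the 21 Lce genes reached the threshold over 26246 features.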
